A study of Mus musculus with 9 samples.

Results

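The 41 genes described here code for the proteins with which germ cells pair their chromosomes and recombine them in meiosis. They were taken from a list that sorts them by role: 8 genes of the synaptonemal complex, 3 for HORMA-domain proteins and their remodeller, 4 of meiotic cohesin, 6 of break formation, 8 of strand exchange and repair, 7 of crossover formation, 3 of telomere attachment and 2 of meiotic entry. All 41 were found among the 32035 genes measured in mouse testes, and all 41 passed the filter on low counts in each comparison. RNA came from whole testes of 3 WT males, 3 Kpna6 ΔIBB/ΔIBB males and 3 Kpna6-/- males, all 15 weeks old and bred on the C57Bl6/N background. Kpna6 codes for importin α7, an adaptor that carries proteins into the nucleus. In the ΔIBB allele exon 2 is lost, and the shortened mRNA is read from a start site in exon 3 into a protein without its importin β binding domain. The Kpna6-/- allele carries a gene trap in intron 1. According to the study, a testis-specific first exon downstream of the trap keeps full-length Kpna6 in the germ cells of these mice while their Sertoli cells lack it, so that this line is not null in the testis.

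In early meiotic prophase SPO11 cuts the DNA, the broken ends are loaded with the recombinase DMC1, and these strands search for the homologous chromosome. The homologues are then zipped together by the synaptonemal complex, which forms between chromosome axes built on meiosis-specific cohesin, and some of the joined sites mature into crossovers. In the adult testis these genes are known for their use in spermatocytes, while spermatids, the haploid cells that follow, make up a large part of the tissue.

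Between 24859751 and 31484692 estimated counts per testis fell on genes. The Kpna6 transcript level was 98.3, 163 and 176 TPM (a transcript level scaled for length and within a library) in the WT testes, 34.8 TPM or less in the Kpna6 ΔIBB/ΔIBB testes and 134, 137 and 141 TPM in the Kpna6-/- testes. The ΔIBB/ΔIBB testes were thus all below the others, with a log2 fold change against WT of -1.79 (SE, the standard error, 0.15, adjusted P = 1.94e-05 in edgeR's quasi-likelihood test), and the Kpna6-/- testes lay within the WT range, with a log2 fold change of -0.18 (SE 0.14, adjusted P = 0.586). Without WT replicate 1 the latter was -0.38, with an adjusted P of 0.000345. Kpna6 ΔIBB/ΔIBB replicate 3 stood apart by part of a list of 7 epididymis markers. Crisp1 was at 77.0 TPM there, against at most 4.23 TPM in any other testis. Spink8 was at 81.3 TPM against at most 10.7 TPM, and Adam7 at 6.99 TPM against at most 0.169 TPM. Rnase10 (5.07 TPM), Ros1 (0.0257 TPM) and Lcn8 (0) were not raised in this testis. Lcn5 was at 0 in all 9. In Kpna6 ΔIBB/ΔIBB against WT testes, all 8 markers of round spermatids and all 10 of elongating spermatids fell and all 10 of Sertoli cells rose, while 1 of 8 markers of pachytene spermatocytes fell and 0 rose. Of 8 markers of spermatogonia 3 rose and 1, Gfra1, fell. Their summed TPM was 109 to 121 in WT, 142 to 161 in ΔIBB/ΔIBB and 106 to 123 in Kpna6-/- testes. Uchl1 held most of this sum, with 71.8 to 78.9 TPM in WT, 92.5 to 109 in ΔIBB/ΔIBB and 72.2 to 83.4 in Kpna6-/- testes. Of 7 markers of macrophages 3 rose and of 6 of peritubular and endothelial cells 3 rose, and 0 of either fell. The summed TPM of the pachytene markers was 7113 to 7627 in WT, 7623 to 7781 in ΔIBB/ΔIBB and 7279 to 7722 in Kpna6-/- testes. Ldhc and Ybx2 held most of that sum. The part of these shifts in cell markers in the values below was not tested, and in whole-testis RNA fewer cells of a type and less RNA per cell cannot be told apart. The study counted germ cells per tubule in sections and reported fewer leptotene/zygotene spermatocytes in both mutant lines. It reported a further decrease of pachytene spermatocytes in ΔIBB/ΔIBB but not Kpna6-/- testes, and no difference in Sall4-labelled cells. Those counts were not set against the RNA values here.

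In WT testes the 41 genes had a median level of 19.0 TPM, against 8.89 TPM for all genes tested, with Mei4 the lowest and Syce3 the highest. Mean WT levels were at or above 100 TPM for 7 genes, between 10 and 100 TPM for 23, between 1 and 10 TPM for 10 and below 1 TPM for 1. The structural proteins of the chromosome axis and of the synaptonemal complex led the order on this scale: Syce3 with 284 ± 7.91 TPM (SD, n = 3), Syce1 with 282 ± 1.77, Syce2 with 235 ± 11.2, Sycp3 with 205 ± 6.58, the cohesin subunit Stag3 with 189 ± 9.95 and Sycp2 with 108 ± 1.07. Psmc3ip, which helps the recombinase to invade a DNA duplex, stood among them with 138 ± 6.65 TPM. Among the partners of SPO11 in break formation, Mei4 was at 0.320, 0.398 and 0.337 TPM and Mei1 was at 4.54, 3.88 and 4.93 TPM in the 3 WT testes. Mei4 rested on 18 to 35 estimated counts per testis, which limits the precision of its differences.

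**Figure D1:**
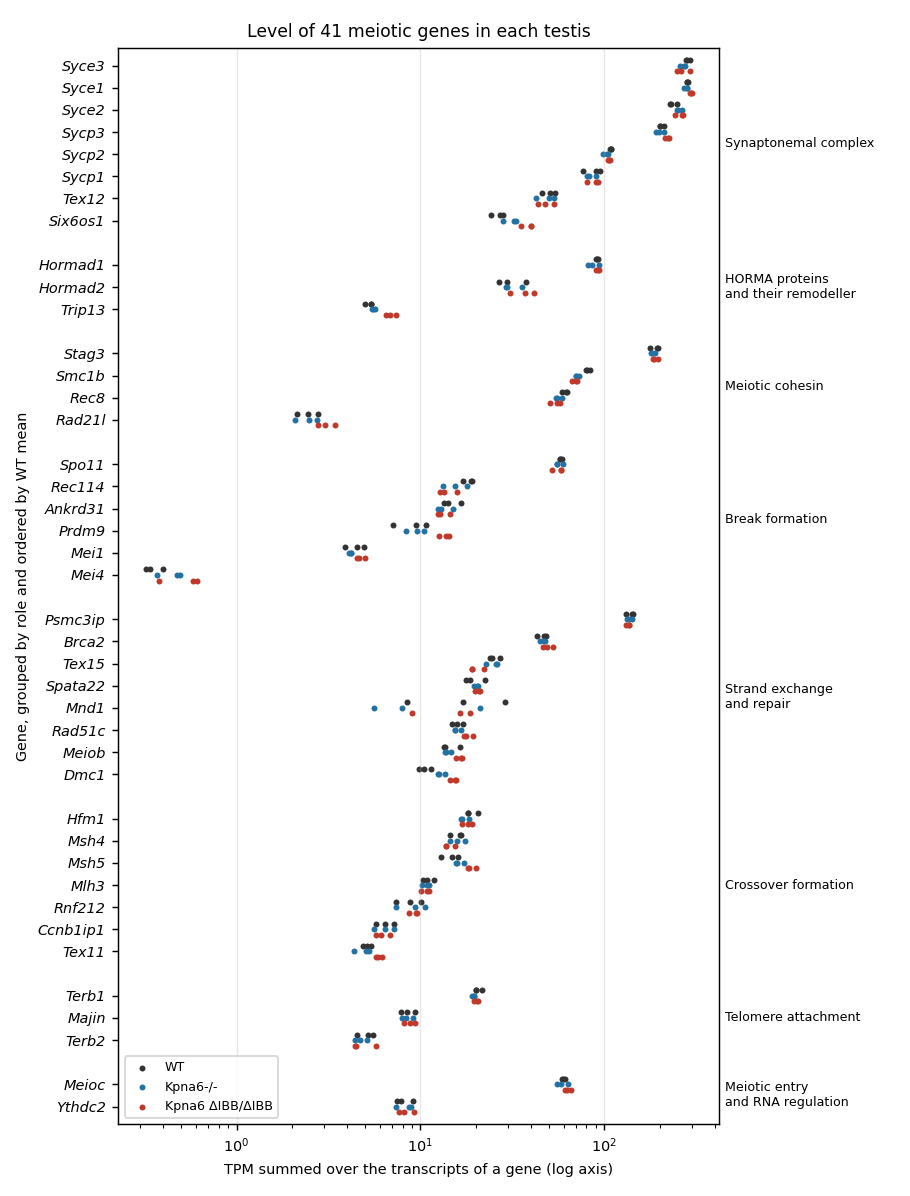
TPM of each of the 41 genes (log axis) in the 3 WT, 3 Kpna6-/- and 3 Kpna6 ΔIBB/ΔIBB testes, 1 point per testis, grouped by role. The order of the genes spans from Mei4 below 1 TPM to Syce3 and Syce1 at 284 and 282 TPM in WT, and for most genes the 3 groups lie close together; Mnd1 varies widely within every group.

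The promoters of the 3 genes shown next belong to those with the smallest adjusted P in each direction in Kpna6 ΔIBB/ΔIBB testes, Smc1b among the lower and Dmc1 and Six6os1 (also 4930447C04Rik) among the higher. Tex15, which had the next smallest adjusted P among the lower, matched no RefSeq promoter and is not shown. Each window runs from 250 bases before the start of transcription to 50 after it, 5′ to 3′ on the strand of the gene, from RefSeq on GRCm38.p6. The window of Smc1b is chr15:85131908-85132207, that of Dmc1 is chr15:79605060-79605359 and that of Six6os1 is chr12:72917716-72918015, all on the minus strand. Capitals mark matches, on either strand, to 5 motifs: the motif of MYB proteins (TAACGG), that of STRA8 (CNCCTCAG), the E-box (CACGTG), that of E2F proteins (GCGGGAA) and that of CREB and CREM (TGACGTCA).
Smc1b: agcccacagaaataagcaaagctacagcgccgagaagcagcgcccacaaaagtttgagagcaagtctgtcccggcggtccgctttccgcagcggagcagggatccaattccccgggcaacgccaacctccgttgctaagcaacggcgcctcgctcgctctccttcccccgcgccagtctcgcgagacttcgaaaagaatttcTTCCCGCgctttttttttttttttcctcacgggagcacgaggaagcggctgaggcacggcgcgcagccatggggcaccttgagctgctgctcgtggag
Dmc1: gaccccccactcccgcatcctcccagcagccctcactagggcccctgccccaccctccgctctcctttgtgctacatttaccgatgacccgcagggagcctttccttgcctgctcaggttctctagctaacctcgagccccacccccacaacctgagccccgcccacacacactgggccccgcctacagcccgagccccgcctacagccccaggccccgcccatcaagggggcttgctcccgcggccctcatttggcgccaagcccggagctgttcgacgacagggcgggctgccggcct
Six6os1: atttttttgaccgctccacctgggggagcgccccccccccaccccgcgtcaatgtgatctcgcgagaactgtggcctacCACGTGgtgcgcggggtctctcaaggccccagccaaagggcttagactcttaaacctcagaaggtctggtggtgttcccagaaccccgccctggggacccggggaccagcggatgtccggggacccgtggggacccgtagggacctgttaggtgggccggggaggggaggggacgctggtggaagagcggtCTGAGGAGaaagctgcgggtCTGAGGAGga
Smc1b held the E2F motif, read on the opposite strand, from 48 bases before the start. Six6os1 held an E-box 171 bases before the start and the STRA8 motif at 2 places after it. The Six6os1 window lies inside the gene as counted (chr12:72881109-72940774, minus strand), away from the 5′ end of that span. Dmc1 held none of the 5 in this window. Of the 41 genes 34 matched a RefSeq promoter, and 6 of them had several, which gave 40 windows. The E2F motif was in 37.5% of these windows, against 4.6% of all 32851 promoters of the same length and 7.1% of the 17015 windows of genes tested (exact 95% interval of the share 22.7 to 54.2%), and its holders included Smc1b, Stag3, Sycp3, Hormad1, Prdm9 and Brca2. The E-box was in 10 of the 40 windows (8.9% of those of genes tested, 7.2% of all) and the STRA8 motif in 8 (9.2% and 7.9%). The MYB motif was in 4, or 10.0% (exact 95% interval 2.8 to 23.7%), against 3.4% of the windows of genes tested. The CREB motif was in 2, or 5.0% (0.6 to 16.9%), against 2.6%. The windows of the 41 genes had a GC content of 59.7%, and those of the genes tested 58.8%. The 15 windows with the E2F motif belonged to 14 genes, and the 10 with the E-box to 9. The exact intervals take the 40 windows as independent, although 6 genes gave several and the genes come from a chosen list. They therefore describe these windows and test nothing. A match describes the letters and is not a measured binding site.

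Between Kpna6 ΔIBB/ΔIBB and WT testes most of the 41 genes differed by little, and those that passed the test moved by less than 1.5-fold in either direction. After normalisation of the counts by TMM (a scaling that takes most genes as unchanged), 4 of the 41 rose (Six6os1, Trip13, Prdm9 and Dmc1) and 14 fell at an adjusted P below 0.05: Sycp2, Syce3, Smc1b, Stag3, Rec8, Spo11, Ankrd31, Psmc3ip, Tex15, Hfm1, Msh4, Mlh3, Terb1 and Meioc. The 18 called genes were 43.9% of the 41, and 36.6% of all 18797 genes tested were called, 17.7% as higher and 18.9% as lower. The median log2 fold change of the 41 was -0.11, against 0.01 over all genes tested. Without Kpna6 ΔIBB/ΔIBB replicate 3 the counts were 4 higher and 10 lower; without ΔIBB/ΔIBB replicate 2 they were 4 and 7, without replicate 1 they were 3 and 9, and without WT replicate 2 or 3 they were 4 and 8 or 3 and 8.

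The direction of the small changes depended on the scale. When the counts were scaled by library total instead of TMM, the median over all genes moved from 0.01 to 0.11, the share of higher genes among all called genes went from 48.4% to 70.0%, and 7 of the 41 were called higher and 3 lower, where 28.8% of all genes were called higher and 12.4% lower. On log2(TPM + 1), where the all-gene median was 0.10, 5 were higher and 3 lower, against 20.9% and 8.63% of all genes. The test on the TPM scale was limma instead of edgeR, so a call lost there does not separate scale from test. Relative to the median of all genes, the median of the 41 was lower by 0.12 with TMM, by 0.12 with library totals and by 0.06 with TPM. All 4 genes called higher were called higher on all 3 scales. Of the 14 called lower, 13 had the same direction on all 3 scales and 2, Smc1b and Tex15, were called lower on all 3, while Meioc changed sign on the TPM scale. The 6 genes called on all 3 scales lie on GRCm38 with Smc1b at chr15:85064689-85131964 (minus strand), Tex15 at chr8:33516738-33585582 (plus strand), Six6os1 at chr12:72881109-72940774 (minus strand), Trip13 at chr13:73911347-73937784 (minus strand), Prdm9 at chr17:15543079-15564354 (minus strand) and Dmc1 at chr15:79561497-79605109 (minus strand).

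**Figure D2:**
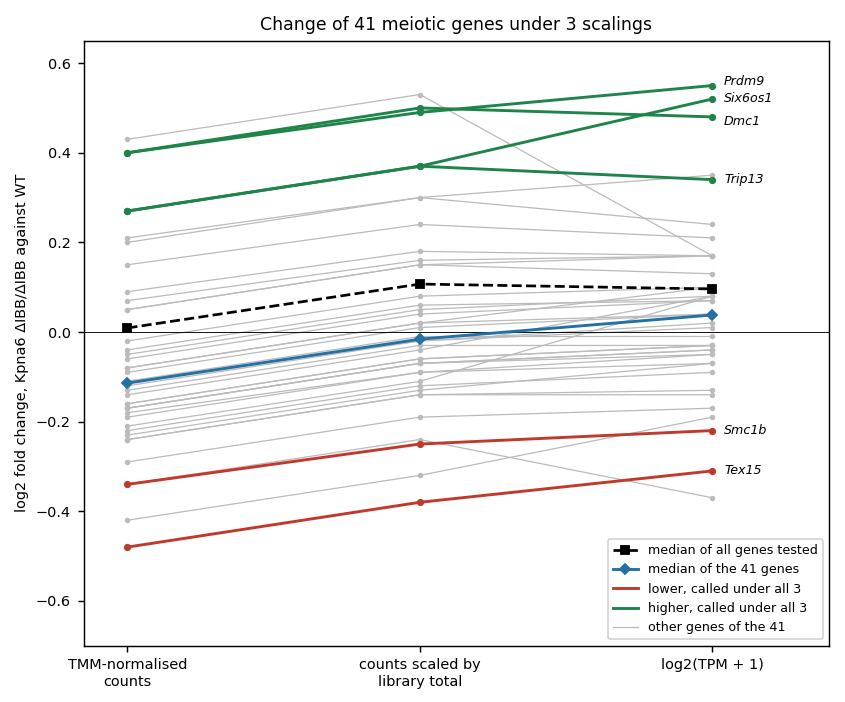
log2 fold change of each of the 41 genes in Kpna6 ΔIBB/ΔIBB against WT testes under 3 scalings, 1 line per gene, with the median of all 18797 genes tested (dashed) and of the 41. Both medians move upwards from TMM to the other scalings, and Prdm9, Six6os1, Dmc1 and Trip13 stay above and Smc1b and Tex15 below 0 under all 3.

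Of the 8 genes of the synaptonemal complex 1 rose and 2 fell. Six6os1 codes for a protein of the central element, the ladder in the middle of the complex. It had 29.2, 30.3 and 31.2 normalised CPM (counts scaled by TMM and by library total) in WT, 39.3, 35.6 and 34.1 in ΔIBB/ΔIBB and 30.3, 37.5 and 33.7 in Kpna6-/- testes. All 3 ΔIBB/ΔIBB values lay above all 3 WT values, with a log2 fold change of 0.27 (SE 0.07, adjusted P = 0.0089), and the Kpna6-/- values reached into both. With protein-coding transcripts alone the log2 fold change of Six6os1 was 0.14 (adjusted P = 0.195), and with the counts of genes that share sequence with it added it was 0.12 (adjusted P = 0.136). Syce3, another central element gene, had 40.9, 43.3 and 41.2 CPM in WT and 35.0, 33.8 and 38.4 in ΔIBB/ΔIBB testes, a decrease of 0.22 on the log2 scale (log2 fold change -0.22, SE 0.06, adjusted P = 0.0159). The lateral element gene Sycp2 had a log2 fold change of -0.13 (SE 0.04, adjusted P = 0.0181). Neither kept its call on the TPM scale, where Syce3 was at -0.09 and Sycp2 at -0.03. The call of Syce3 was also lost without WT replicate 2 or ΔIBB/ΔIBB replicate 1 or 2 (adjusted P 0.0564 to 0.0767), and that of Sycp2 without WT replicate 3 or ΔIBB/ΔIBB replicate 3 (0.0519 and 0.0709). For Sycp1, Sycp3, Syce1, Syce2 and Tex12 the log2 fold changes lay between -0.19 and 0.05, none of them past the test. On the TPM scale the 8 genes together summed to 1269 to 1286 in WT and 1315 to 1332 in ΔIBB/ΔIBB testes.

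HORMAD1 and HORMAD2 coat chromosome axes that have not yet paired, and the ATPase TRIP13 strips them off once they have. Trip13 rose. It had 14.2, 13.2 and 13.6 normalised CPM in WT and 17.5, 16.1 and 15.7 in ΔIBB/ΔIBB testes, against 14.7, 14.2 and 14.5 in Kpna6-/- testes. Every ΔIBB/ΔIBB testis was above every other, and the log2 fold change against WT was 0.27 (SE 0.08, adjusted P = 0.0209). That call was lost without WT replicate 2 or 3 or ΔIBB/ΔIBB replicate 1, with adjusted P values of 0.0555 to 0.0809 and log2 fold changes no lower than 0.22. Hormad1 and Hormad2 had log2 fold changes of -0.11 and 0.15 that did not pass the test.

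Meiotic cohesin, which holds sister chromatids along the axes, held the decrease with the smallest adjusted P of the 41. Smc1b had 255, 255 and 257 normalised CPM in WT testes. It had 193, 201 and 208 in ΔIBB/ΔIBB testes and 221, 222 and 234 in Kpna6-/- testes. In CPM the 3 groups were separate, with the Kpna6-/- testes in between. In ΔIBB/ΔIBB against WT testes Smc1b fell by 21.3% (log2 fold change -0.34, SE 0.04, adjusted P = 8.22e-05) and stayed past the threshold in all 17 alternatives. As a level, Smc1b went from 80.1, 79.9 and 83.5 TPM to 67.1, 70.5 and 71.3 TPM, and the Kpna6-/- testes, with 69.8, 70.3 and 73.0 TPM, overlapped the latter. Rec8, which codes for the kleisin subunit that closes the cohesin ring, had 91.5, 83.7 and 86.8 CPM in WT and 64.7, 71.0 and 77.8 in ΔIBB/ΔIBB testes. The groups did not overlap, and the log2 fold change of Rec8 was -0.29 (SE 0.07, adjusted P = 0.0059), although on the TPM scale it was -0.17 with an adjusted P of 0.0698. Stag3 had a log2 fold change of -0.11 (SE 0.04, adjusted P = 0.0376) that was -0.01 on the TPM scale, and its call was lost without WT replicate 2 or 3 or ΔIBB/ΔIBB replicate 1 or 2 (adjusted P 0.0703 to 0.146). Rad21l, the alternative kleisin and the lowest of the 4 with 2.14 to 2.76 TPM in WT testes, did not pass the test at 0.21 (SE 0.16).

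Among the genes of break formation Prdm9 rose and Spo11 and Ankrd31 fell. PRDM9 is the histone methyltransferase that marks the sites where breaks are made in the mouse. Its gene had 9.85, 9.29 and 10.0 normalised CPM in WT, 14.1, 12.5 and 11.6 in ΔIBB/ΔIBB and 10.8 to 12.1 in Kpna6-/- testes. In CPM no WT testis reached the level of any mutant testis. In ΔIBB/ΔIBB testes Prdm9 rose by 31.5% (log2 fold change 0.40, SE 0.10, adjusted P = 0.00896), and with protein-coding transcripts alone by 0.36 on the log2 scale (adjusted P = 0.0284). Matches of 100 to 148 bases tie Prdm9 to 22 other genes, and when all of their counts were added the log2 fold change of the sum was -0.12. Spo11, the enzyme that cuts the DNA, had 80.1, 80.0 and 82.2 CPM in WT, 72.6, 73.2 and 66.9 in ΔIBB/ΔIBB and 79.5, 83.9 and 78.6 in Kpna6-/- testes. Its log2 fold change in ΔIBB/ΔIBB testes was -0.18 (SE 0.05, adjusted P = 0.0143), but -0.05 on the TPM scale (adjusted P = 0.527), where the groups overlapped. Ankrd31, which helps to set the place and number of breaks, had a log2 fold change of -0.24 (SE 0.06, adjusted P = 0.00757) and of -0.14 on the TPM scale (adjusted P = 0.346). Rec114 had a log2 fold change of -0.34 (adjusted P = 0.0589), and its locus overlaps that of Nptn, whose counts were 1074% of its own, and reads from the 260 bases that match in this pair cannot be told apart. Mei1 at -0.04 and Mei4 at 0.43 (SE 0.28) did not pass the test.

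In strand exchange and repair 1 gene rose and 2 fell. Dmc1, the meiosis-specific recombinase, had 16.9, 16.0 and 17.8 normalised CPM in WT testes. It had 22.7, 22.5 and 21.5 in ΔIBB/ΔIBB testes and 20.1, 21.8 and 20.5 in Kpna6-/- testes. In CPM the testes of both mutant lines lay above all WT testes and overlapped each other. Dmc1 rose by 31.7% in ΔIBB/ΔIBB against WT testes (log2 fold change 0.40, SE 0.07, adjusted P = 0.00142) and kept this call in all 17 alternatives. Its counts come from a single transcript of the set used. This transcript had 10.4, 9.88 and 11.4 TPM in WT and 15.6, 15.4 and 14.5 TPM in ΔIBB/ΔIBB testes. In Kpna6-/- testes it had 12.5, 13.6 and 12.6 TPM, between the other groups and without overlap. Tex15, whose product is needed to load the recombinase onto broken ends and also acts in the silencing of transposons, moved the other way. It had 109, 114 and 108 CPM in WT, 73.3, 74.4 and 88.6 in ΔIBB/ΔIBB and 93.6, 103 and 106 in Kpna6-/- testes. The groups did not overlap between ΔIBB/ΔIBB and either other genotype. Tex15 fell by 28.4% against WT (log2 fold change -0.48, SE 0.07, adjusted P = 0.000356), a call kept in all 17 alternatives, and without replicate 3, the ΔIBB/ΔIBB testis with the highest value, the log2 fold change was -0.57. Psmc3ip had a log2 fold change of -0.16 (SE 0.05, adjusted P = 0.0207) that was -0.03 on the TPM scale, and its call was lost without WT replicate 2 or 3 or ΔIBB/ΔIBB replicate 1 or 2 (adjusted P 0.0616 to 0.0807).

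MND1 forms a heterodimer with PSMC3IP, but the transcripts of the pair behaved differently in these libraries. Mnd1 had 17.0, 8.41 and 28.9 TPM in WT, 16.4, 9.03 and 18.6 in ΔIBB/ΔIBB and 7.97, 5.56 and 21.2 in Kpna6-/- testes, a spread within each group wider than any difference between groups. In each genotype replicate 2 was the lowest for Mnd1 and replicate 3 the highest, and the cause of this shared order was not tested. Psmc3ip stayed between 131 and 143 TPM in all 9 testes. The log2 fold change of Mnd1 in ΔIBB/ΔIBB testes was -0.42 (SE 0.36, adjusted P = 0.41). Rad51c, Meiob, Spata22 and Brca2, which load or protect the single strands, had log2 fold changes from -0.08 to 0.07, none of them past the test.

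Of the 7 genes of crossover formation 3 fell, with log2 fold changes between -0.24 and -0.17. Hfm1, a helicase, had 65.5, 66.0 and 69.9 normalised CPM in WT and 57.9, 59.5 and 53.9 in ΔIBB/ΔIBB testes (log2 fold change -0.23, SE 0.05, adjusted P = 0.00696). These groups were apart in CPM, while on the TPM scale the log2 fold change of Hfm1 was -0.07 (adjusted P = 0.56). MSH4 and MSH5 act as a heterodimer that clamps recombination intermediates, and their genes had opposite signs. Msh4 fell (log2 fold change -0.24, SE 0.08, adjusted P = 0.0345) and Msh5 was at 0.20 (SE 0.08, adjusted P = 0.0684) with TMM and at 0.35 (adjusted P = 0.0296) on the TPM scale, where Msh4 was at -0.13 (adjusted P = 0.273). The call of Msh4 was lost without WT replicate 2 or 3 or ΔIBB/ΔIBB replicate 1 or 2 (adjusted P 0.0985 to 0.132), and without WT replicate 2 Msh5 passed with an adjusted P of 0.0427. With protein-coding transcripts alone the call of Msh4 was lost as well, and its leading transcript is a retained intron. Mlh3, which codes for a nuclease subunit that resolves crossovers, had a log2 fold change of -0.17 (SE 0.06, adjusted P = 0.0393), and its call was lost without any of 5 testes, all but WT replicate 1 (adjusted P 0.0612 to 0.121). Rnf212, Ccnb1ip1 and Tex11 lay between -0.21 and 0.09 and did not pass.

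Majin, Terb1 and Terb2 anchor telomeres to the nuclear envelope. Terb1 fell, from 43.5, 43.8 and 45.4 normalised CPM in WT to 40.6, 39.5 and 38.6 in ΔIBB/ΔIBB testes (log2 fold change -0.16, SE 0.05, adjusted P = 0.0317), and was at -0.03 on the TPM scale. It lost its call without WT replicate 2 or 3 or ΔIBB/ΔIBB replicate 2 or 3 (adjusted P 0.0539 to 0.0946). The call of Terb1 was also lost with protein-coding transcripts alone. Majin and Terb2 were at -0.08 and -0.17 (SE 0.11 and 0.13). MEIOC and YTHDC2 bind RNA together as germ cells leave mitosis for meiosis. Meioc had 168, 169 and 163 CPM in WT and 154, 151 and 147 in ΔIBB/ΔIBB testes (log2 fold change -0.14, SE 0.04, adjusted P = 0.0165). In TPM the order of Meioc was the reverse, with 59.2, 59.2 and 61.1 in WT and 65.5, 61.3 and 62.9 in ΔIBB/ΔIBB testes (0.08 on log2(TPM + 1), adjusted P = 0.227), so that no direction can be given for this gene. Its call with TMM was lost without ΔIBB/ΔIBB replicate 2 or 3 (adjusted P 0.0591 and 0.0582). Ythdc2 was at -0.09 (SE 0.06).

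**Figure D3:**
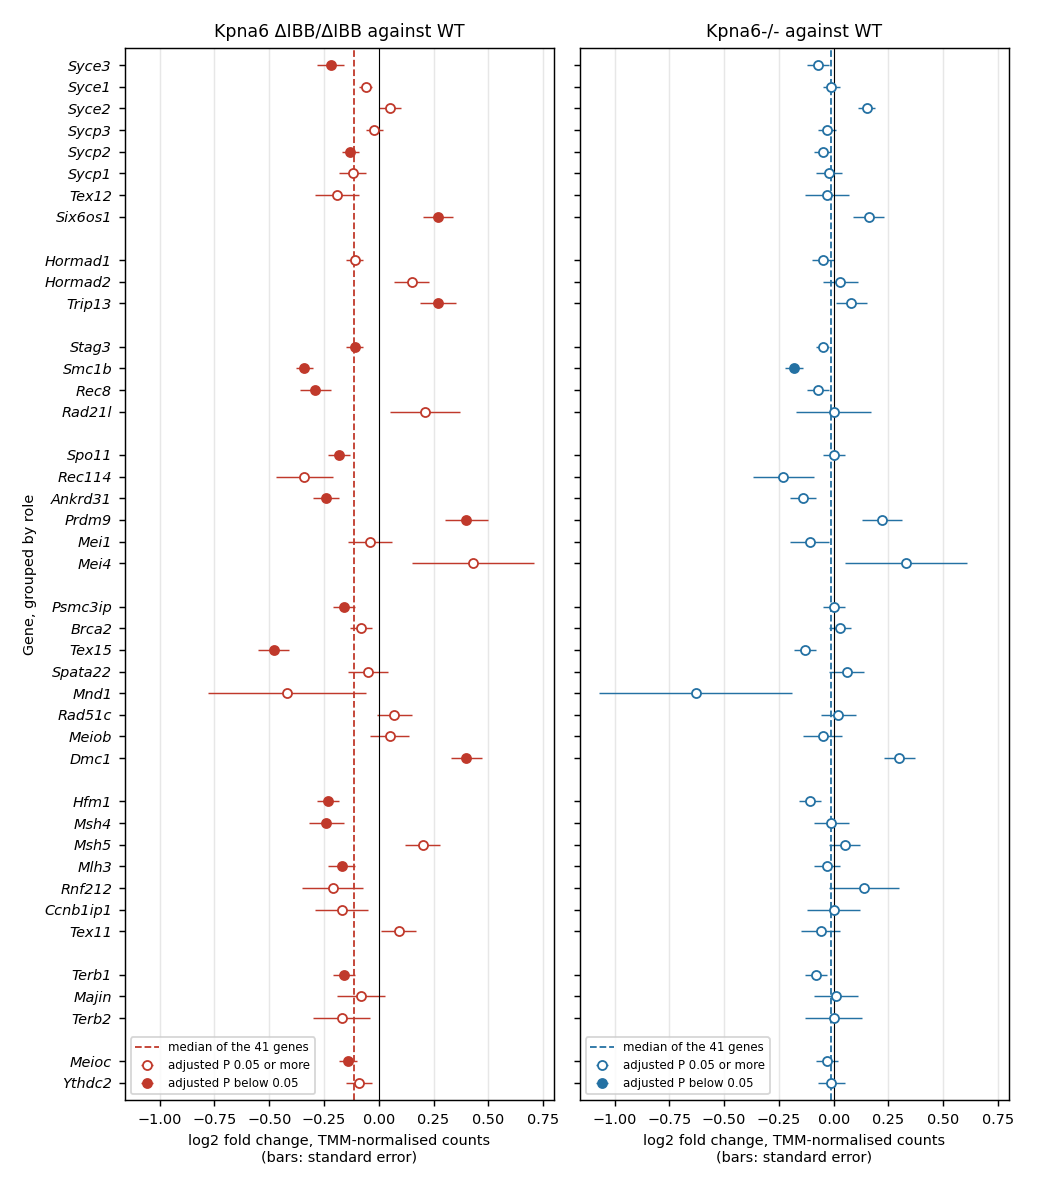
log2 fold change with standard error of the 41 genes in Kpna6 ΔIBB/ΔIBB (left) and Kpna6-/- (right) against the same 3 WT testes, from TMM-normalised counts, with filled symbols for an adjusted P below 0.05 and a dashed line at the median of the 41. The left panel holds 18 filled symbols around a median of -0.11 and the right panel 1, Smc1b, around a median of -0.01.

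In Kpna6-/- testes, whose germ cells keep Kpna6, the 41 genes were close to WT. Smc1b was the single gene called. It fell by 11.9% (log2 fold change -0.18, SE 0.04, adjusted P = 0.0349), and 0 rose, where 1.6% of all 18681 genes tested were called, 0.889% as higher and 0.712% as lower. With an unadjusted P below 0.05 there were 4 higher and 3 lower genes of the 41, and DESeq2 called Syce2 higher (adjusted P = 0.033) and Smc1b lower. The call of Smc1b was lost without WT replicate 2 or 3 or Kpna6-/- replicate 1 or 2 (adjusted P 0.0833 to 0.172). It was also lost on the TPM scale, where limma called 32 of all genes tested, against 299 called by edgeR with TMM. The log2 fold change of Smc1b on the TPM scale was -0.19 (adjusted P = 0.175 in limma). Dmc1 had a log2 fold change of 0.30 (SE 0.07, adjusted P = 0.0634). It passed the threshold without the filter on low counts (adjusted P = 0.0369) and in a fit of all 9 testes (adjusted P = 0.0462), but not with DESeq2 (adjusted P = 0.0724). The log2 fold change of Prdm9 was 0.22 (adjusted P = 0.268), that of Six6os1 0.16 (adjusted P = 0.333) and that of Trip13 0.08 (adjusted P = 0.661). For Tex15 it was -0.13 (adjusted P = 0.258) and for Rec8 -0.07 (adjusted P = 0.571). The median log2 fold change of the 41 was -0.01, against 0.002 over all genes tested. Both comparisons with WT used the same 3 WT testes, so a shared sign is not independent.

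**Figure D4:**
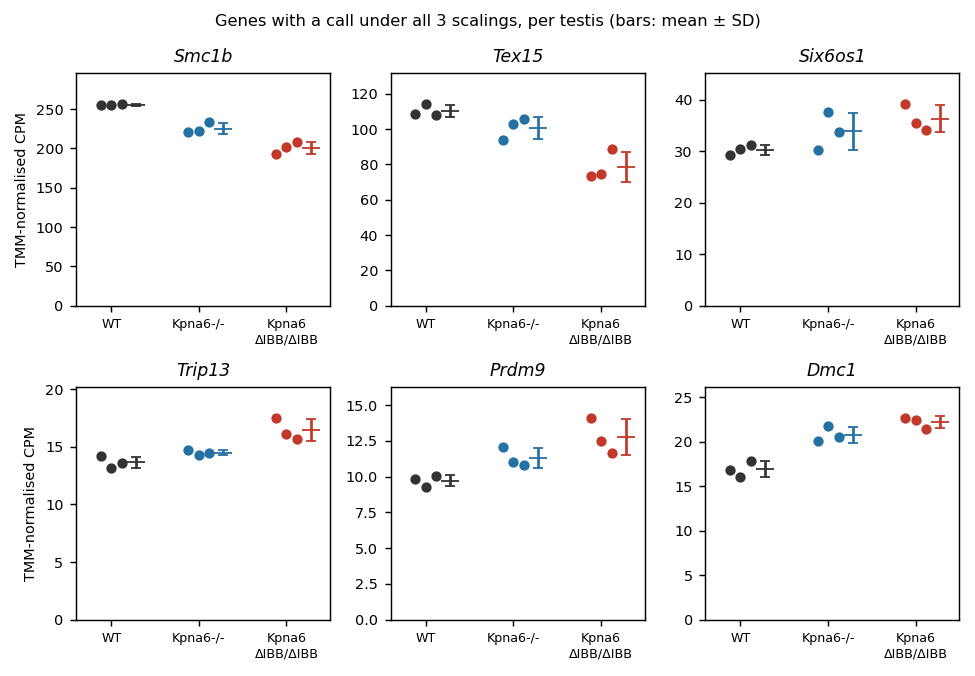
Normalised CPM of the 6 genes called under all 3 scalings in Kpna6 ΔIBB/ΔIBB against WT testes, 1 point per testis with mean ± SD (n = 3) beside it, all axes from 0. Smc1b and Tex15 are lowest in the ΔIBB/ΔIBB testes, and Six6os1, Trip13, Prdm9 and Dmc1 are higher there than in every WT testis; the Kpna6-/- testes lie in between or overlap.

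A direct test of the 2 mutant lines asked which of the 41 differed between them. In ΔIBB/ΔIBB against Kpna6-/- testes 6 genes were lower (Smc1b, Rec8, Spo11, Psmc3ip, Tex15 and Mlh3) and 0 higher, where 30.3% of all 18752 genes tested were called, 13.5% as higher and 16.8% as lower. Tex15 had the largest of these differences (log2 fold change -0.36, SE 0.07, adjusted P = 0.00309), and it was the single gene of the 6 called lower with library totals (-0.26, adjusted P = 0.0163) and on the TPM scale (-0.29, adjusted P = 0.043). Smc1b was at -0.17 (SE 0.04, adjusted P = 0.00752), and at -0.03 on the TPM scale (adjusted P = 0.635). An unadjusted P below 0.05 was reached by 1 gene of the 41 in the higher direction, and DESeq2 called 0. On the TPM scale, where 20.2% of all genes were called higher and 7.09% lower, 5 of the 41 were called higher, namely Six6os1, Trip13, Prdm9, Dmc1 and Meiob, with Prdm9 at 0.48 (adjusted P = 0.0126), and with library totals (26.3% higher and 10.8% lower over all genes) the 5 were Hormad2, Trip13, Prdm9, Dmc1 and Msh5. The median over the 41 was -0.10 against 0.01 over all genes tested, and on the TPM scale 0.05 against 0.11. The call of Rec8 was lost without ΔIBB/ΔIBB replicate 1 or 2 or Kpna6-/- replicate 3 (adjusted P 0.0535 to 0.0722), that of Spo11 without Kpna6-/- replicate 2 (0.0539) and that of Mlh3 without 5 of the 6 testes, all but Kpna6-/- replicate 3 (0.0647 to 0.155). With protein-coding transcripts alone Spo11 lost its call and Ythdc2 gained one.

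A wider list of 52 other meiotic genes, of which 51 passed the filter on low counts, was read for comparison. In ΔIBB/ΔIBB against WT testes 5 rose and 7 fell, 23.5% of those tested, where 36.6% of all genes were called, 17.7% as higher and 18.9% as lower. The median log2 fold change of the list was -0.02. Without WT replicate 1 the number that fell was 14. Smc1a, the somatic counterpart of Smc1b in cohesin, rose by 0.43 on the log2 scale (SE 0.09, adjusted P = 0.00412), opposite to Smc1b, from 5.72, 4.31 and 4.92 TPM to 8.30, 8.97 and 8.20 TPM. The FK506-binding protein gene Fkbp6 rose by 0.36 (adjusted P = 0.00115), the histone gene H2afx, whose product is phosphorylated at breaks and on the sex chromosomes, by 0.25 (adjusted P = 0.00786) and Sfr1 by 0.21 (adjusted P = 0.0088). Speedya, whose product activates CDK2 at telomeres, had a log2 fold change of -0.40 (adjusted P = 0.000539), Brme1, a partner of BRCA2, of -0.28 (adjusted P = 0.00141), Fancd2 of -0.25 (adjusted P = 0.0123) and the nuclear envelope gene Sun1 of -0.23 (adjusted P = 0.00794). Of these 4, Speedya was the one also called lower with library totals and on the TPM scale, and Fancd2 was at -0.03 on the latter. With library totals 17 of the list were called higher and 2 lower, where 28.8% of all genes were called higher and 12.4% lower. In Kpna6-/- against WT testes 0 of the 51 were called by edgeR or DESeq2, with 1 higher and 0 lower at an unadjusted P below 0.05. Between the lines 4 were higher and 9 lower in ΔIBB/ΔIBB testes, where 13.5% of all genes were called higher and 16.8% lower. Smc1a (0.27), Fkbp6 (0.26), Sfr1 (0.19) and Zcwpw1 (0.17), a reader of the PRDM9 mark, had positive log2 fold changes there, and Speedya (-0.33), Rad54b (-0.26), Sun1 (-0.23) and Brme1 (-0.23) were the largest of the negative. The calls between the lines of Smc1a, Zcwpw1 and Rad54b were each lost without any of 4 testes (adjusted P up to 0.157, 0.0797 and 0.117).

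Transcripts within the 41 genes were compared by their share of the gene's TPM. The leading transcript, the one with the highest mean TPM in WT, led in all 9 testes for 31 genes. It held more than 50% of the gene's TPM in every testis for 25 genes, of which 9 have a single transcript in the set. For no gene did its share differ between groups without overlap and by more than 10 percentage points. With 1 testis left out, 0 to 4 genes did, 4 of them without WT replicate 3, 3 without Kpna6-/- replicate 1 and 1 each without ΔIBB/ΔIBB replicate 1 or 3. For 8 genes (Syce2, Hormad2, Prdm9, Rec114, Rad51c, Brca2, Msh4 and Terb1) the leading transcript is not annotated as protein-coding, and the level of such a gene is not that of its coding mRNA. For Prdm9 the coding transcript Prdm9-206 had 2.78, 2.76 and 2.75 TPM in WT, 4.53, 3.75 and 3.45 in ΔIBB/ΔIBB and 3.60, 3.23 and 3.22 in Kpna6-/- testes. For this 1 of 6 transcripts all WT values lay below all mutant values. Summed over all 6, Prdm9 had 9.41, 7.08 and 10.7 TPM in WT and 10.4, 9.55 and 8.35 in Kpna6-/- testes, which overlap. On log2(TPM + 1) that log2 fold change was 0.06 (adjusted P = 0.911 in limma).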

How the data were processed

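RNA of whole testes, 3 per genotype, was measured by poly(A) RNA sequencing. The authors deposited 1 table per testis with estimated counts and TPM values per transcript, made with kallisto on the mm10 assembly (version 0.45 in the submitters' processing notes). The estimated counts are not normalised between samples, and TPM is scaled within a library. Which release the transcripts came from is not given in the sources used here. Of 96626 transcripts, 95301 were assigned to 32035 genes of GENCODE M21 (GRCm38) by identifier, and both values were summed per gene. Counts on genes ranged from 24859751 to 31484692 per testis. The sources used here do not state that strand was kept, so reads of overlapping genes cannot be told apart.

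Rounded gene counts of the 6 testes compared were filtered with filterByExpr, scaled by TMM, and compared by quasi-likelihood in edgeR 4.0.16 (R 4.3.3), with Benjamini-Hochberg adjustment over all genes tested and a threshold of 0.05. The SE of a log2 fold change was derived from this test, as the absolute log2 fold change divided by the square root of the test statistic F. Normalised CPM per testis come from TMM over all 9 libraries. On simulated data for Kpna6-/- against WT (18681 genes, 100 changed 2-fold and 100 changed 1.5-fold) the edgeR test recovered 87 and 67 and made 10 other calls. The simulation held no change below 1.5-fold and did not cover ΔIBB/ΔIBB testes. It therefore does not show how well the smaller changes reported here are recovered. The alternatives were DESeq2 1.42.0, library totals, no filter, a filter of 5 counts in 47% of samples, a replicate block, 1 fit of all 9 samples, limma 3.58.1 on log2(TPM + 1) and log2(TPM + 0.1), summing genes that share sequence (blastn 2.17.0+, 95% identity over 100 bases), and each testis left out in turn. Summing over matches of at least 0.5 of a transcript and using protein-coding transcripts alone were added after seeing the data. Within a group the labels name separate replicates without stating how they were drawn, so P-values measure the spread between these samples. No replicate pair of a group agreed within sampling noise (mean chi-square per gene 3.79 to 7.18, where sampling alone gives 1). The smallest P of an exact permutation of 3 against 3 testes is 0.1.

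The 41 genes, the wider list, the markers and the motifs were chosen with earlier results of these data known. Named with full statistics were Kpna6, the genes of the 41 with an adjusted P below 0.05 in a comparison, and up to 4 other meiotic genes per direction and comparison by size. Rnf212b was not analysed here. Tables were handled with Python 3.11.15.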

Additional observations from a re-analysis of the deposited data

Results flagged for a closer look

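All 41 genes, and Kpna6, were tested between the lines, as Kpna6 ΔIBB/ΔIBB against Kpna6-/- testes, with edgeR's quasi-likelihood test. Of the 41, 6 passed the threshold, all lower, or 14.6%, where 30.3% of all 18752 genes tested were called. Of these 6, Tex15 alone was also called with library totals and on the TPM scale. Kpna6 passed as well. The log2 fold changes were -0.17 for Smc1b, -0.23 for Rec8, -0.19 for Spo11, -0.17 for Psmc3ip, -0.36 for Tex15, -0.15 for Mlh3 and -1.61 for Kpna6. Both lines were also compared with the same 3 WT testes, so these differences and those against WT are not independent.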

How the results depend on the processing

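In ΔIBB/ΔIBB against WT testes, scaling by library totals gave 7 of the 41 genes higher and 3 lower with a median of -0.016, and 17 of the other meiotic genes higher and 2 lower. On log2(TPM + 1) and log2(TPM + 0.1) 3 of the 41 were lower, the medians turned to 0.038 and 0.042, Meioc turned to 0.078 and 0.08, and 14 of the other meiotic genes were higher and 1 lower on both. A fit of all 9 samples gave 8 other meiotic genes higher. With shared sequence summed 2 of the 41 were higher and Prdm9 turned to -0.119. With 1 testis left out, 3 to 4 of the 41 were higher and 7 to 14 lower, the median lay between -0.137 and -0.082, and 5 to 7 other meiotic genes were higher and 6 to 14 lower.

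In Kpna6-/- against WT testes, 1 of the 41 was higher with DESeq2 (Syce2), and 1 without the filter and in the fit of all 9 samples (Dmc1 in both), and 0 were lower on either TPM scale. All genes called were 624 without the filter, 32 on log2(TPM + 1), 33 on log2(TPM + 0.1) and 92 to 518 with 1 testis left out. With 1 testis left out, 0 to 1 of the 41 were lower, the median lay between -0.043 and 0.011, turning positive (0.011) without WT replicate 3 or Kpna6-/- replicate 1, and Kpna6 lay between -0.382 and -0.057.

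Between the lines, library totals gave 5 of the 41 higher and 1 lower with a median of -0.005, and 15 other meiotic genes higher and 3 lower. On the TPM scales 5 of the 41 were higher and 1 lower, the medians turned to 0.054 and 0.055, and 12 other meiotic genes were higher and 0 lower. DESeq2 gave 2 other meiotic genes higher, the fit of all 9 samples 5 lower, and with shared sequence summed Zcwpw1 turned to -0.053. With 1 testis left out, 0 to 1 of the 41 were higher, and 2 to 5 other meiotic genes were higher and 5 to 7 lower. Shares of leading transcripts differed for 0 to 4 genes with 1 testis left out.

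Deviations of same-numbered testes correlated between -0.045 and 0.086, and those of other pairs between -0.137 and 0.068. These values do not settle whether the replicate numbers mark a pairing. With the replicate number as a block, 4 of the 41 were higher and 13 lower in ΔIBB/ΔIBB against WT testes. The counts were 0 and 1 in Kpna6-/- against WT, and 0 and 13 between the lines. Of all genes tested, 6793 of 18797, 229 of 18681 and 6032 of 18752 were called with the block in these comparisons, in the same order. Under the block against WT, ΔIBB/ΔIBB testes lost the calls of Mlh3 and Terb1 and gained Sycp1, and Kpna6-/- testes lost that of Smc1b (adjusted P = 0.078) and gained Mnd1 (-0.68, adjusted P = 0.0465). Between the lines Sycp1, Syce2, Syce3, Brca2, Hfm1, Msh4 and Meioc were added.

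Of 697 values of single genes under alternatives, 546 kept direction and side of the threshold, 147 kept direction alone and 4 turned. The cause of these moves was not tested. The 3 testes per group, and low counts for Mei4, limit what small differences can show.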
